A study of Homo sapiens with 4 samples.

Results

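The comparison is of MKN45 cells after 24 h in 0.3 µM periplocymarin with MKN45 cells after 24 h in 0.1% DMSO, the vehicle in which the drug was dissolved. MKN45 is an established line from a poorly differentiated human gastric adenocarcinoma, known for amplification of the receptor gene MET. Poly(A) messenger RNA was sequenced, with 1 library a side. A gene counted as measured at a mean of at least 1 FPKM (read counts scaled by gene length and library depth) over the 2 libraries, which held for 11895 of the 62710 Ensembl genes in the table. Differences are treated minus DMSO on the log2(FPKM + 1) scale, on which a value of 1 is 2-fold. A gene is called higher or lower from a difference of 1. The study also holds HGC27, another gastric cancer line (undifferentiated, grown from a lymph node deposit), in the same treatment and vehicle, also with 1 library each. Its 2 libraries are set beside MKN45 where that helps. Over all 11821 genes measured in HGC27, 9.72% were higher and 10.4% lower. With 1 library a side there is no replicate error, no p-value and no standard deviation, and nothing in the labels gives a culture, a passage or a sequencing batch.

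Periplocymarin is a cardiac glycoside, a plant steroid carrying a sugar. Cardiac glycosides bind the Na,K-ATPase from outside the cell and stop it, so that sodium accumulates and potassium is lost. Human cells are sensitive to this class, and loss of cell potassium is known to slow protein synthesis. Sustained exposure is also known to alter calcium signalling, Src and growth factor receptor signalling, and cell survival.

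The recovered reads numbered 36321070 in the DMSO library and 27545073 in the treated library. Of 10 gastric epithelial markers (KRT8, KRT18, KRT19, EPCAM, ELF3, CEACAM5, CEACAM6, TSPAN8, MUC13 and CDH17) 10 were at 1 FPKM or more in both MKN45 libraries, with summed levels of 3046 FPKM in DMSO and 4316 FPKM treated. Of 10 fibroblast markers 1 reached 1 FPKM in DMSO (ACTA2) and 0 treated, with DCN and FAP listed at 0 and summed levels of 2.30 and 0.848 FPKM. Of 8 immune markers, LYZ and CD68 reached 1 FPKM in both, with PTPRC and CD14 among those listed at 0 and summed levels of 163 and 127 FPKM. Of 5 endothelial markers 0 reached 1 FPKM, and CDH5, VWF, KDR and ERG were listed at 0. The treated library differed in its makeup: mitochondrially encoded genes held 11.2% of reads in DMSO and 5.14% treated, and the 10 most abundant genes held 11.2% and 6.72%. Genes at 1 FPKM or more numbered 12321 in DMSO and 11148 treated. These 3 measures moved the same way in HGC27, where the mitochondrial share was 6.94% and 3.40%. Their part in the differences below was not tested.

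Of the 11895 measured genes, 977 were at least 2-fold higher after periplocymarin (8.21%) and 1064 at least 2-fold lower (8.94%), and the median over all measured genes was 0.07. That split depends on the scaling of the libraries. The library size implied by the deposited values was 1.01 times the recovered reads in DMSO and 0.866 times in the treated library. Treated levels are therefore higher with the deposited scaling than with recovered read totals. With each library divided by its FPKM sum it was 1303 higher and 878 lower. With reads scaled to the recovered read totals it was 557 higher and 1463 lower of 11749 genes. These 2 scalings moved the median of all genes by 0.10 and -0.19. With quantile normalization the split was 768 higher and 998 lower of 11880 genes. With each gene set against others of its level it was 693 and 1042 of 11895. List counts in these scalings are to be set beside these splits, and those in the deposited scaling beside 8.21% and 8.94%. With the deposited scaling, among the 4390 genes whose mean was 10 FPKM or more, the split was 611 higher and 210 lower. Against the deposited scaling, 34 of 57 gene lists kept the sign of their median in all 4 other scalings tried, 24 above 0 and 10 below. Just inside the threshold, SNRK, a kinase, stood at 5.35 and 11.7 FPKM, and just outside it ABCD3, a peroxisomal transporter, at 7.69 and 16.4 FPKM. On the lower side the nearest genes were B3GALT9 at 2.23 and 0.613 FPKM inside and TFF1, a gastric trefoil peptide, at 24.2 and 11.6 FPKM outside.

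**Figure D1:**
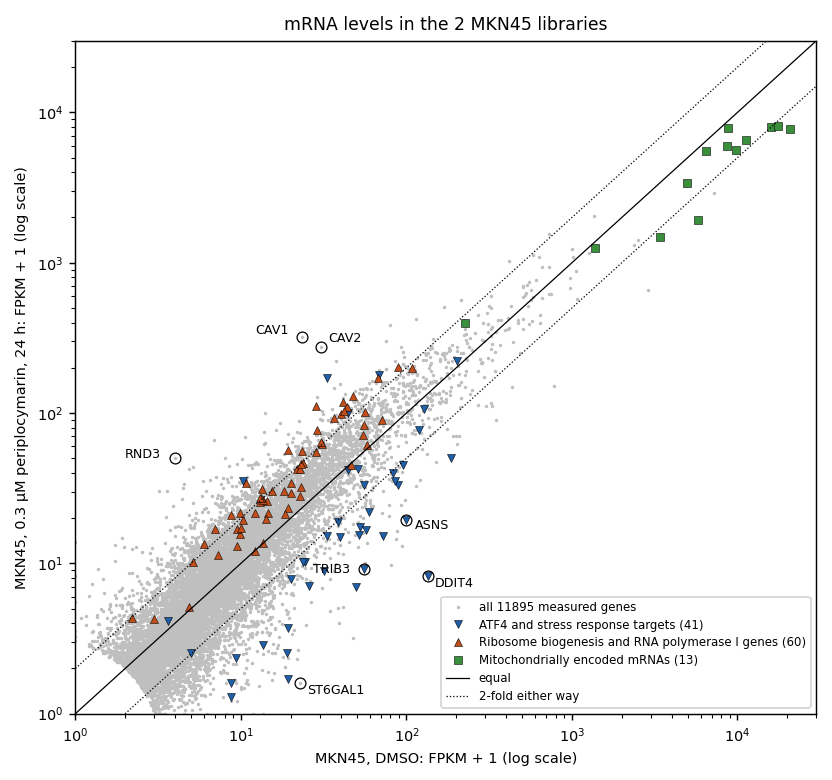
Levels of the 11895 measured genes in the 2 MKN45 libraries, FPKM + 1 on log axes, DMSO on the horizontal and periplocymarin on the vertical axis; the solid line marks equal levels and dotted lines 2-fold. Members of the ATF4 list (blue) lie mostly below the lines, ribosome biogenesis genes (orange) mostly above the line of equality, and mitochondrially encoded mRNAs (green) at the top right.

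Where the mean was 10 FPKM or more, the highest difference of a protein-coding gene belonged to CAV1, caveolin 1, a coat protein of membrane invaginations. It went from 22.5 to 318 FPKM, a ratio of 14.1-fold (95% interval 13.6 to 14.7). That interval is an exact Clopper-Pearson one on the recovered reads and, like the others, covers counting error only. RND3, a small GTP-binding protein that opposes contractility, went from 3.01 to 49.1 FPKM. GADD45B, a stress-induced growth arrest gene, went from 5.90 to 64.98 FPKM. All 3 genes stood at 22.5 FPKM or less in DMSO and at 49.1 FPKM or more after treatment. AKAP12, a scaffold for protein kinases, went from 2.19 to 29.5 FPKM. CAV2, the partner of CAV1 and its neighbour on chromosome 7, went from 29.5 to 274 FPKM, or 9.27-fold (95% interval 9.04 to 9.50). PTGS2, the inducible cyclooxygenase that makes prostaglandins, went from 3.86 to 41.1 FPKM.

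The next 9 genes mixed secreted factors, a keratin and signalling regulators. FGFBP1, which frees growth factors from the matrix, went from 4.10 to 42.99 FPKM. AREG, an EGF receptor ligand, went from 2.59 to 29.1 FPKM. KRT80, an epithelial keratin, went from 12.96 to 99.4 FPKM. CXCL1, a neutrophil chemokine, is taken up with the NF-kB genes below. CCN1, a matricellular protein, went from 9.63 to 68.3 FPKM. MACC1, a regulator of MET, went from 7.06 to 49.5 FPKM. F3, the tissue factor that starts coagulation, went from 3.38 to 25.6 FPKM. These genes stood at 12.96 FPKM or less in DMSO and at 25.6 FPKM or more after treatment. RGS2, an inhibitor of G protein signalling, went from 4.90 to 34.2 FPKM. The gene model ENSG00000255508 went from 3.55 to 32.9 FPKM, and because it is a read-through whose exons overlap EEF1G and TUT1 its value is uncertain. In HGC27, 9 of the 15 were measured and 4 were 2-fold higher, while 0 were lower.

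The lowest difference was that of DDIT4, an inhibitor of mTORC1 signalling that stress induces. It went from 134 to 7.27 FPKM, lower by 18.4-fold (95% interval 16.6 to 20.5). ST6GAL1, which adds sialic acid to N-linked glycans, went from 21.8 to 0.602 FPKM, lower by 36.3-fold (95% interval 31.01 to 42.7). TST, a mitochondrial sulfurtransferase, went from 21.02 to 1.63 FPKM. These 3 genes had been readily detected in DMSO, and ST6GAL1 was under 1 FPKM after treatment. PLCXD1, a phospholipase C-like protein, went from 79.6 to 8.71 FPKM. ASS1, which joins citrulline and aspartate in arginine synthesis, went from 40.5 to 4.14 FPKM. GCNT3, which branches mucin glycans, went from 92.5 to 12.02 FPKM. Sulfur and nucleotide metabolism were represented too. CTH, the enzyme that makes cysteine from cystathionine, went from 48.2 to 5.99 FPKM. NT5E, the ectoenzyme that makes adenosine from AMP, went from 33.3 to 3.84 FPKM. DEPTOR, an inhibitor within mTOR complexes, went from 23.6 to 2.89 FPKM.

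The remaining genes of the 15 lowest were TRIB3, PPP1R1B, IDH1, CEBPB, ASNS and a copy of the cystathionine synthase gene (CBSL in GENCODE 29). TRIB3, a stress-induced pseudokinase, had a difference of -2.59. PPP1R1B, a phosphatase inhibitor, went from 85.6 to 13.4 FPKM. IDH1, the cytosolic isocitrate dehydrogenase, went from 87.3 to 15.3 FPKM. CEBPB, a transcription factor of stress and inflammation, went from 18.2 to 2.71 FPKM. CBSL went from 19.9 to 2.59 FPKM, and its near-identical copy CBS makes the split of reads between them uncertain. Of the 15 lowest, 10 were measured in HGC27, where 8 were 2-fold lower and 0 higher. DDIT4 went from 489.9 to 98.1 FPKM there and IDH1 from 59.8 to 7.15 FPKM.

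**Figure D2:**
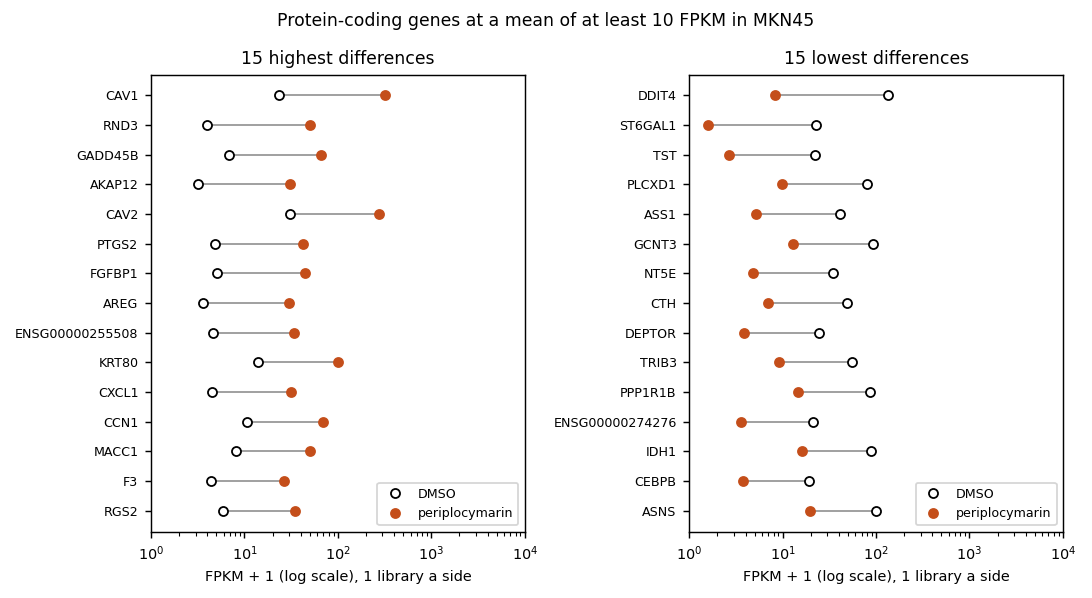
FPKM + 1 on a log axis for the 15 protein-coding genes with the highest (left) and the 15 with the lowest (right) differences with a mean of 10 FPKM or more; open circles are the DMSO library and filled circles the periplocymarin library, 1 library each. CAV1 moves from 22.5 to 318 FPKM and DDIT4 from 134 to 7.27 FPKM.

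The Na,K-ATPase includes a beta subunit needed for its export to the membrane, and small FXYD proteins tune it. In MKN45, 6 of 21 listed genes were measured and 0 passed 2-fold in either direction. FXYD3, an epithelial regulator, went from 55.2 to 31.04 FPKM. FXYD5, another regulator, stood at 12.9 and 11.9 FPKM. The beta subunits ATP1B1 and ATP1B3 had differences of 0.68 and 0.47. The 2 beta subunits were thus above their DMSO levels and FXYD3 below it, each by less than 2-fold. With the list median at 0.18, the sign of that median turned in 3 of the 4 other scalings (-0.12 with quantile normalization, -0.12 against genes of the same level and -0.04 with recovered read totals).

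Of 36 measured sodium, potassium, chloride and calcium transporters, 4 were higher and 4 lower, shares near the 8.21% and 8.94% over all measured genes. SLC20A1, a sodium-phosphate cotransporter, went from 27.7 to 127 FPKM. SLC4A7, a sodium-bicarbonate cotransporter, went from 7.77 to 31.6 FPKM. KCNK1, a potassium leak channel, went from 7.85 to 26.9 FPKM. The fourth higher gene was ATP2A2, the calcium pump of the endoplasmic reticulum, which went from 25.03 to 58.9 FPKM. On the lower side, the calcium-activated chloride channel ANO1 went from 9.71 to 1.53 FPKM. SLC4A4, another bicarbonate cotransporter, went from 14.2 to 5.37 FPKM. KCNN4, a calcium-activated potassium channel, went from 5.73 to 0.725 FPKM. The 2 bicarbonate cotransporters therefore differed in direction. Among 15 measured osmotic stress and cell volume genes, 3 were higher and 1 lower. NFAT5, the transcription factor of the hypertonic response, went from 4.43 to 12.6 FPKM. OXSR1, a kinase that regulates cation-chloride cotransport, went from 16.4 to 46.2 FPKM. LRRC8D, a subunit of the volume-regulated anion channel, went from 29.9 to 5.82 FPKM. AKR1B1, which makes sorbitol and is a target of NFAT5, stood at 26.5 and 15.8 FPKM.

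Targets of ATF4 were lower as a group. ATF4 is the transcription factor that the integrated stress response induces through the translation of its mRNA, and its targets supply amino acids, charge tRNA and curb mTORC1. Of 41 measured members, 29 were lower, 4 higher and 8 neither, with a median of -1.40 against 0.07 over all measured genes. With each gene set against others of its level the median was -1.84, and 30 members were lower. In HGC27, 14 of 44 measured members were lower and 0 higher, with a median of -0.60. ATF4 itself had a difference of 0.13. CHAC1, which degrades glutathione, went from 18.2 to 0.695 FPKM, lower by 26.1-fold (95% interval 18.6 to 37.9). ASNS, asparagine synthetase, went from 98.9 to 18.5 FPKM, lower by 5.34-fold (95% interval 5.10 to 5.58). HERPUD1, a component of the degradation of proteins from the endoplasmic reticulum, went from 30.8 to 7.94 FPKM. All 3 were lower in treated MKN45, while ASNS in HGC27 stood at 150.0 and 160.3 FPKM.

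The promoters of these 3 genes are shown because each holds the core of the C/EBP-ATF response element (CARE), to which ATF4 dimers bind. Sequences are RefSeq promoters on GRCh38.p14, cut around the match, 5′ to 3′ along the gene, with the motif in capitals.
ASNS, chr7:97872429-97872536 on the minus strand: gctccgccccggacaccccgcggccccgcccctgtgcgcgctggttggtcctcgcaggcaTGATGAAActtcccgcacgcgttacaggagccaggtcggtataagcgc
CHAC1, chr15:40953221-40953309 on the plus strand: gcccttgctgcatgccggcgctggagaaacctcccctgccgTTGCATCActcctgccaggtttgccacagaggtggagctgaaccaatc
HERPUD1, chr16:56931906-56932013 on the plus strand: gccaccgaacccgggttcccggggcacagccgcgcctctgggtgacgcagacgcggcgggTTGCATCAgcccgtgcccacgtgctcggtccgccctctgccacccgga
The motif searched was TGATGNAA on both strands, in windows of 250 bases before to 50 after the start. It was in 3.67% of 27305 promoters and in 1.63% of 8671 promoters of measured genes matched by symbol. The motif was found for 8 of the 34 measured ATF4 list members that have a RefSeq promoter (23.5%). It was in 3 of the 22 lower members and in 5 of the 8 that were neither. Over all measured genes it was in 1.86% of those called higher, 3.07% of those called lower and 1.47% of the rest. The 5 members called neither way that held it were SLC3A2, SLC7A1, SLC38A1, CARS1 and ATF3, with differences from -0.99 (CARS1) to 0.19 (ATF3). A match is a description of letters and not of binding.

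The 4 higher members of the ATF4 list were ALDH18A1, PPP1R15A, GDF15 and TXNIP. ALDH18A1 makes the proline precursor, and its difference was 1.16. PPP1R15A, the phosphatase subunit that ends the stress response, was at 9.24 and 34.1 FPKM. GDF15, a secreted stress factor, went from 66.8 to 177 FPKM. Of the transcription regulators in the list, ATF3 was called neither way and 3 others are given next. ATF5 went from 18.99 to 6.87 FPKM. DDIT3, also called CHOP, went from 23.4 to 9.21 FPKM. NUPR1, a stress-induced chromatin protein, went from 7.73 to 0.289 FPKM. Of the translation arm, EIF2S1, the alpha subunit of eIF2, went from 25.2 to 62.8 FPKM. EIF2S2, the beta subunit, went from 137 to 70.3 FPKM and so stood just short of 2-fold lower. The core regulators of the response as a list had 2 of 20 higher and 2 lower.

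Amino acid supply genes overlap the ATF4 list, so their counts are not independent of it. Of 23 measured serine and one-carbon enzymes, 6 were lower and 1 higher, and the lower ones covered the whole serine pathway. PHGDH, its first enzyme, went from 24.7 to 6.06 FPKM. PSAT1, the second, went from 185 to 49.4 FPKM. PSPH, the third, went from 71.3 to 14.2 FPKM. The next step followed the same direction. SHMT2, which splits serine in mitochondria, went from 88.2 to 32.00 FPKM. MTHFD2, which processes the folate product, went from 37.6 to 17.7 FPKM. MAT2A, which makes S-adenosylmethionine, went from 436 to 148 FPKM. The mitochondrial folate carrier SLC25A32 was the higher member, at 12.7 and 29.5 FPKM. TYMS, thymidylate synthase, stood at 25.6 and 46.5 FPKM.

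Of 24 measured amino acid transporters, 8 were lower and 1 was higher. SLC7A11, the cystine importer, went from 50.4 to 14.5 FPKM. SLC1A4, a neutral amino acid exchanger, went from 14.3 to 4.19 FPKM. SLC7A5, the leucine importer, went from 82.4 to 38.7 FPKM. The higher member was SLC7A6, an exchanger of cationic amino acids, at 6.18 and 23.7 FPKM. SLC38A2, a sodium-coupled transporter that hypertonic stress and amino acid lack are known to induce, went from 139.8 to 279 FPKM, just short of 2-fold. In HGC27 the transporters leaned the other way, with 6 of 21 higher and 1 lower. Over all genes measured there the shares were 9.72% and 10.4%, and the difference between the lines was not tested. Of 38 aminoacyl-tRNA synthetases, which charge tRNA, 8 were lower and 1 higher. WARS1, for tryptophan, went from 56.2 to 15.8 FPKM. AARS1, for alanine, went from 53.8 to 19.1 FPKM. SARS1, for serine, went from 58.00 to 20.9 FPKM. Of the 8 lower synthetases 7 serve the cytosol (GARS1 mitochondria too), and PARS2, for mitochondrial proline, is the other, with a difference of -1.47. LARS2, the mitochondrial leucine enzyme, was the higher one, at 4.11 and 9.24 FPKM.

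Several polyamine genes belong to the list of asparagine, arginine, proline and polyamine enzymes, which had 6 higher and 9 lower of 26. Between 2 and 4 were higher with quantile normalization, against genes of the same level and with recovered read totals. Polyamines are made by ODC1 and AMD1 and broken down by SAT1, and antizyme (OAZ1) degrades ODC1 protein. ODC1 went from 74.2 to 300.4 FPKM, or 4.05-fold (95% interval 3.95 to 4.15). AMD1 went from 15.3 to 76.5 FPKM. AZIN1, the antizyme inhibitor, had a difference of 1.30, and SRM, spermidine synthase, one of 1.13. These 4 genes were called higher and the next 2 lower. OAZ1 went from 120.4 to 34.98 FPKM. SAT1 went from 190.5 to 69.5 FPKM. In HGC27, ODC1 went from 56.97 to 131 FPKM and OAZ1 from 97.3 to 53.3 FPKM. GPT2, which transfers nitrogen to pyruvate, went from 51.5 to 16.4 FPKM. GLUL, glutamine synthetase, had a difference of -1.25 and ARG2, mitochondrial arginase, one of -1.77.

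Protein folding genes are set beside 8.21% higher and 8.94% lower over all measured genes. Of 37 endoplasmic reticulum chaperones and unfolded protein response genes, 0 were higher and 4 lower, the lower share being near that over all genes. XBP1, a transcription factor of that response, went from 69.9 to 20.5 FPKM. SEL1L, of the degradation complex, went from 33.03 to 13.5 FPKM. Cytosolic heat shock genes counted 4 higher and 3 lower of 35, near the shares over all genes. HSPA8, the constitutive HSP70, went from 201 to 61.01 FPKM, and its many pseudogenes and intronic snoRNAs make the value uncertain. HSPB1, a small heat shock protein, went from 16.6 to 4.34 FPKM. HSPA4, a nucleotide exchange factor, went from 36.5 to 74.5 FPKM. HSPA8 and HSPB1 were therefore lower and HSPA4 higher. With recovered read totals or against genes of the same level the list had 0 higher, and 4 and 3 lower. Of 37 NRF2 targets and redox enzymes, 7 were lower and 2 higher. GPX2, a gastrointestinal glutathione peroxidase, went from 346 to 88.9 FPKM. ME1, a source of NADPH, went from 55.2 to 23.1 FPKM. TXNRD1, thioredoxin reductase, went from 64.5 to 158 FPKM. ABCC3, a drug exporter, went from 19.4 to 5.33 FPKM. SLC7A11, PIR, CBR1 and CAT were the other lower members, and TXNRD1, a known NRF2 target like most of them, was higher. The other higher member was TXNIP, which the ATF4 list also holds, with a difference of 2.36.

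Ribosome biogenesis genes leaned higher as a group. These genes make rRNA with RNA polymerase I and trim, modify and assemble it in the nucleolus. Of 60 measured members, 23 were higher and 0 lower, with a median of 0.96. Set against genes of the same level the median was 0.56 with 9 higher, and with recovered read totals 0.74 with 15. In HGC27, 4 of 60 were higher, against 9.72% of all genes measured there, with a median of 0.38. NOP56, a core protein of box C/D particles, went from 27.4 to 111 FPKM. DKC1, the pseudouridine synthase, went from 18.3 to 55.6 FPKM. Both genes carry snoRNAs in their introns, which can add to the reads. NOC3L, of large-subunit export, went from 9.79 to 33.3 FPKM. WDR43, of the small-subunit processome, went from 40.4 to 117 FPKM. GNL3, a nucleolar GTPase, went from 46.3 to 129 FPKM. NOLC1, a nucleolar phosphoprotein, went from 66.5 to 171 FPKM. Members of both subunits and of box C/D and H/ACA particles were thus among the higher ones. POLR1E, an RNA polymerase I subunit, had a difference of 0.01. MYC, a transcription factor known to drive these genes, was at 6.81 and 7.64 FPKM.

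The promoters of UTP20 and NAT10 are shown as examples with an E-box, the site that MYC dimers and related factors bind. UTP20 is a processome protein that went from 5.94 to 15.98 FPKM, and NAT10, an rRNA acetyltransferase, went from 29.3 to 63.1 FPKM.
UTP20, chr12:101280035-101280134 on the plus strand: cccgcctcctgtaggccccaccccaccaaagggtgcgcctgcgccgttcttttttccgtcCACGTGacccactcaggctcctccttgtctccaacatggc
NAT10, chr11:34105554-34105658 on the plus strand: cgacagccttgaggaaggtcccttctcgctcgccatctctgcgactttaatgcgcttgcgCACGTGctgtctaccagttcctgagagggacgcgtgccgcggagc
The motif was CACGTG, which reads the same on both strands. It was in 7.43% of all promoters and in 10.4% of those of measured genes. Of 51 list members that have a RefSeq promoter, 19 held it (37.3%), 9 of the 19 higher members and 10 of the 32 others. Over all measured genes, 13.2% of those called higher held it, 7.88% of those called lower and 10.4% of the rest.

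Ribosomal proteins and translation factors had fewer higher calls than ribosome biogenesis genes. Of 79 cytosolic ribosomal protein genes, 0 were higher and 3 lower, with a median of -0.14. Their share of reads was 5.50% in DMSO and 4.40% treated. RPS18 went from 50.1 to 11.8 FPKM and RPL7A from 207 to 69.3 FPKM, but processed pseudogenes share their sequence and make both uncertain. Among 43 initiation and elongation factors, 6 were higher and 1 was lower. With quantile normalization 0 were higher and 2 lower, and against genes of the same level 0 and 3. EIF4E, the cap-binding protein, went from 13.4 to 34.2 FPKM. EIF4EBP1, its inhibitor and an ATF4 target, went from 133 to 52.4 FPKM. EIF5B, which joins the subunits, went from 24.5 to 63.9 FPKM. ABCE1, which recycles ribosomes, went from 41.9 to 98.5 FPKM. The cap-binding protein and its inhibitor thus lay on opposite sides of 2-fold. Mitochondrial ribosomal proteins counted 2 higher and 2 lower of 76, beside 8.21% and 8.94% over all measured genes. Splicing factors and nonsense-decay genes had 5 of 30 higher and 0 lower, and with recovered read totals 1. CLK1, a kinase of splicing factors, went from 12.5 to 34.2 FPKM. SRSF1, a splicing factor, went from 72.6 to 152 FPKM.

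Genes of mitosis leaned higher. The kinetochore joins chromosomes to the spindle, mitotic kinases drive entry, and the anaphase-promoting complex drives exit. In bulk RNA a larger share of cells in mitosis and more RNA in each such cell cannot be told apart. Of 49 measured kinases, cyclins and cytokinesis genes, 16 were higher and 0 lower, with a median of 0.89. Set against genes of the same level it was 0.55, with 5 higher, and with quantile normalization 6 were higher. Of 38 kinetochore and checkpoint genes, 10 were higher and 0 lower, with a median of 0.62, and 4 were higher against genes of the same level. In HGC27, 21 of 49 and 12 of 39 were higher, against 9.72% of all genes measured there. ANLN, the scaffold of the cleavage furrow, went from 38.6 to 155 FPKM. CKS2, a subunit of cyclin-dependent kinases, went from 58.4 to 158 FPKM. BUB1B, a checkpoint kinase-like protein, went from 24.4 to 65.1 FPKM. The regulators at the top of the pathway were in the same direction. CDK1, the kinase of mitotic entry, went from 34.2 to 91.6 FPKM. CCNB1, its cyclin, went from 45.9 to 101 FPKM. PLK1, another mitotic kinase, went from 27.7 to 49.1 FPKM, short of 2-fold.

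The promoters of BUB1B, CKS2 and ANLN are shown because each holds a cell cycle homology region (CHR) core, the element at which the DREAM and MuvB complexes bind mitotic genes.
BUB1B, chr15:40160986-40161091 on the plus strand: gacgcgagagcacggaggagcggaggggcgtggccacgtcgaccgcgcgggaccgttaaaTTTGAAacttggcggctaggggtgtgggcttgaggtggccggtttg
CKS2, chr9:89311106-89311211 on the plus strand: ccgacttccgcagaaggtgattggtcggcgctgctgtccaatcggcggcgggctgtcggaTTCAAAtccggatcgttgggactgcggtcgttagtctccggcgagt
ANLN, chr7:36389776-36389887 on the plus strand: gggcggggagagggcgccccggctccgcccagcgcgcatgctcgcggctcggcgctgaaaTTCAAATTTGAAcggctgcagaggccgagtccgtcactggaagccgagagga
The motif was TTTGAA on both strands, and ANLN has 1 match on each strand, side by side. It was in 15.4% of all promoters and 9.35% of those of measured genes. Of 75 members of the 2 mitotic lists with a promoter 41 held it (54.7%), 17 of the 22 higher members and 24 of the 53 others. Over all measured genes it was in 16.5% of those called higher, 8.91% of those called lower and 8.71% of the rest. The higher mitotic members are part of the first of these groups. LIN54, the MuvB subunit that binds the element, had a difference of 0.89, and FOXM1, a mitotic transcription factor, one of -0.04.

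Kinesins, the microtubule motors, counted 12 higher and 3 lower of 30, with 7 higher against genes of the same level. Of the 12, 10 are motors of mitosis or cytokinesis. KIF20B, of cytokinesis, went from 8.70 to 33.8 FPKM. KIF23, of the central spindle, went from 13.3 to 43.7 FPKM. KIF11, which separates spindle poles, went from 21.1 to 57.7 FPKM. The cargo motor KIF5B was higher as well, at 53.5 and 112 FPKM. On the lower side KIF21B, a motor of neurons and immune cells, went from 9.79 to 1.01 FPKM. KIF1A and KIF12 had differences of -1.93 and -1.47. Of 12 measured tubulins, 3 were higher and 1 lower. TUBA1B, the main alpha tubulin, went from 214 to 562 FPKM, and its near-identical family members can share reads with it. TUBE1, of centrioles, went from 9.43 to 3.72 FPKM.

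Replication genes leaned the same way. Of 51 measured G1/S and DNA replication genes, 12 were higher and 0 lower, with a median of 0.58. Fewer were higher with quantile normalization (5), against genes of the same level (4) and with recovered read totals (6), each with 1 lower. In HGC27 the counts were 6 and 4 of 51, near the 9.72% and 10.4% over all genes measured there. CDC25A, the phosphatase that activates cyclin-dependent kinases, went from 7.19 to 35.4 FPKM. E2F8, a repressor of the E2F family, went from 3.94 to 17.1 FPKM. RRM2, which makes deoxynucleotides, went from 28.3 to 73.7 FPKM. Origin factors were among the higher genes. ORC6, of the origin recognition complex, went from 11.5 to 34.1 FPKM. Of 12 measured D cyclins, partners and inhibitors, 3 were higher and 0 lower. CCND1, cyclin D1, went from 74.4 to 194 FPKM. CDKN1A, the inhibitor p21, went from 13.9 to 23.2 FPKM, short of 2-fold. RB1, the retinoblastoma protein gene, stood at 12.8 and 5.97 FPKM. RBL1, its relative p107, went from 9.67 to 28.2 FPKM. The pocket proteins thus split, with RBL1 higher and RB1 below its DMSO level. Of 35 recombination, Fanconi and checkpoint genes, 4 were higher and 1 lower. Histone genes counted 0 higher and 0 lower of 16, whereas in HGC27 10 of 20 were higher, against 9.72% of all genes there. Core histone mRNAs mostly lack a poly(A) tail.

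**Figure D3:**
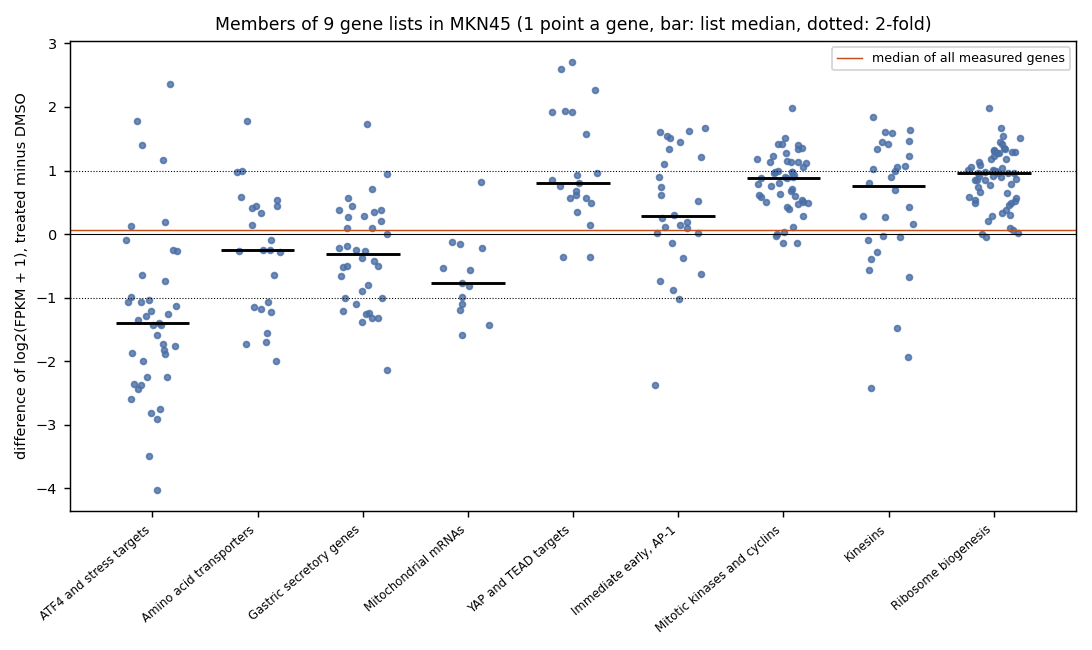
Differences of log2(FPKM + 1), treated minus DMSO, for the measured members of 9 gene lists in MKN45; each point is a gene, black bars are list medians, dotted lines mark 2-fold and the orange line the median of all measured genes (0.07). The ATF4 list has its median at -1.40 and ribosome biogenesis at 0.96.

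Of 13 measured genes of the EGF receptor family, its ligands and MET, 5 were higher and 1 lower. EREG, an EGF receptor ligand like AREG, went from 2.51 to 19.5 FPKM. TGFA, another ligand, went from 4.36 to 12.9 FPKM. HBEGF, also a ligand, stood at 7.50 and 5.57 FPKM. The ligands thus lay on both sides of their DMSO levels. EGFR, the receptor, went from 9.31 to 28.1 FPKM. ERBB3, which signals through its partners, went from 22.8 to 10.00 FPKM. ERBB2 stood at 13.2 and 10.3 FPKM. The median of the list was 0.25, which turned negative with quantile normalization (-0.04) and against genes of the same level (-0.04). Feedback genes of the ERK pathway counted 3 higher and 0 lower of 20, and 4 and 4 with quantile normalization. DUSP6, the ERK phosphatase, went from 54.97 to 27.3 FPKM. ETV4, a transcription factor of the pathway, went from 33.2 to 16.4 FPKM. DUSP5, a nuclear ERK phosphatase, went from 8.12 to 23.99 FPKM. ERRFI1, an inhibitor of EGFR, went from 53.3 to 143 FPKM. DUSP5 and ERRFI1 were past 2-fold higher, while DUSP6 and ETV4 lay just short of 2-fold lower.

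MET and the caveolins lie next to each other at 7q31. In GENCODE 29 on GRCh38, CAV2 spans chr7:116287380-116508541, CAV1 spans chr7:116524785-116561184 and MET spans chr7:116672390-116798386. MET, the HGF receptor, went from 727 to 1547 FPKM, or 2.13-fold (95% interval 2.11 to 2.14), and in HGC27 it stood at 5.61 and 4.68 FPKM. CAPZA2, an actin capping protein, stood at 130.7 and 242 FPKM. ST7 stood at 18.05 and 34.5 FPKM. TES, on the other side of the caveolins, went from 279 to 213 FPKM. CAV1 and CAV2 were the genes of this stretch with the highest differences, and TES was below its DMSO level. The cavins did not follow, since CAVIN3 had a difference of -1.45, and 2 of 7 measured caveolin and cavin genes were higher and 1 lower.

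Of 28 immediate early and AP-1 genes, which respond within minutes to signals, 9 were higher and 2 lower. FOSL1, an AP-1 subunit, went from 14.8 to 47.7 FPKM. KLF10, a zinc finger factor, went from 20.2 to 59.6 FPKM. EGR1, another, went from 5.92 to 16.6 FPKM. The AP-1 family was mixed. FOS stood at 10.02 and 8.95 FPKM. JUN went from 7.25 to 12.7 FPKM, short of 2-fold. JUNB went from 24.6 to 11.6 FPKM. MAFF, a small MAF protein, went from 2.14 to 8.92 FPKM, and its promoter holds a cyclic AMP response element.
MAFF, chr22:38201880-38201987 on the plus strand: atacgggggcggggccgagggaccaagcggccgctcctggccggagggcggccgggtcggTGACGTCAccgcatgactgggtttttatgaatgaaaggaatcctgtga
The motif, TGACGTCA, reads the same on both strands. It was in 1.98% of all promoters and 3.46% of those of measured genes, and in 2 of 20 list members with a promoter (MAFF, and JUND with a difference of -0.88). By call over all measured genes, the shares were 4.58% of higher, 2.19% of lower and 3.47% of other genes.

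YAP and TEAD targets leaned higher. YAP and TAZ are coactivators that enter the nucleus when the Hippo kinases are inactive, and act through TEAD factors. Of 21 measured members, 7 were higher and 0 lower, with a median of 0.81, and 7 were also higher with quantile normalization and with recovered read totals. CCN2, a matricellular protein like CCN1, went from 6.16 to 26.2 FPKM. AMOTL2, a feedback inhibitor of YAP, went from 4.79 to 26.9 FPKM. CRIM1, a membrane protein, went from 10.9 to 44.9 FPKM. Genes of the coactivators and factors themselves were in this group. WWTR1, which encodes TAZ, went from 18.2 to 71.8 FPKM. TEAD1 went from 7.93 to 25.5 FPKM. In HGC27, CCN1 went from 3.22 to 23.5 FPKM, and 8 of 27 members were higher, against 9.72% of all genes measured there. Actin and SRF target genes had 4 higher and 0 lower of 28, with a median of 0.36 that became -0.02 against genes of the same level, where 0 were higher and 1 lower. SRF itself went from 15.5 to 37.1 FPKM. Of 31 integrin, laminin and focal adhesion genes, 4 were higher and 2 lower, beside 8.21% and 8.94% over all measured genes. With quantile normalization or recovered read totals the counts were 3 and 4. ITGA2, a collagen receptor subunit, went from 8.87 to 33.2 FPKM. LAMC1, a laminin chain, went from 17.4 to 38.4 FPKM. ITGB4, of hemidesmosomes, went from 162 to 87.8 FPKM, short of 2-fold lower. The Src family kinase FYN went from 5.43 to 0.951 FPKM. SRC itself stood at 17.5 and 9.39 FPKM.

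NF-kB targets and cytokines had 5 of 20 measured members higher and 1 lower, with a median of 0.60. With no filter on low values, 5 of 32 were higher and 1 lower, with a median of 0.19, and the median over all 62710 genes was 0. NF-kB dimers induce chemokines, survival genes and their own inhibitors. CXCL1 went from 3.49 to 30.5 FPKM. CXCL8, a chemokine also called IL-8, went from 0.472 to 6.85 FPKM, or 14.5-fold (95% interval 10.7 to 20.2). BIRC3, an inhibitor of cell death, went from 0.722 to 12.2 FPKM, or 16.8-fold (95% interval 14.6 to 19.6). CXCL8 and BIRC3 were below 1 FPKM in DMSO and counted as measured through their treated levels. NFKBIA, the inhibitor of NF-kB that the pathway is known to induce, stood at 7.14 and 6.77 FPKM. The promoters of CXCL1, CXCL8 and BIRC3 are shown because each holds a form of the kB site.
CXCL1, chr4:73869255-73869388 on the plus strand: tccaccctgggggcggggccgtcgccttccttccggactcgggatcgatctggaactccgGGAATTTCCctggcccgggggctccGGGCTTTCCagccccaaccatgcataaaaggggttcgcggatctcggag
CXCL8, chr4:73740418-73740526 on the plus strand: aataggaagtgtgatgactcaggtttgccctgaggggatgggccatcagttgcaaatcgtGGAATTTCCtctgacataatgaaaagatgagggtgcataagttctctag
BIRC3, chr11:102317234-102317333 on the plus strand: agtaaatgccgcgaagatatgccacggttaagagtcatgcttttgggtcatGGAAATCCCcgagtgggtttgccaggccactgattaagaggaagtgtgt
The form searched was GGNNTTTCC on both strands, and no letters of one motif used here contain another. It was in 6.26% of all promoters and 6.92% of those of measured genes. Of 17 list members with a promoter 11 held it (64.7%): 4 of the 5 higher members, the lower member TNFAIP2 and 6 of the 11 others. Over all measured genes this form was in 6.72% of those called higher, 8.18% of those called lower and 6.82% of the rest. NFKBIA, CXCL2 and CXCL3 were among those 6, with differences of -0.07, 0.84 and 0.80.

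Of 46 measured keratins, junction genes and identity factors, 10 were higher and 1 lower, with a median of 0.43. With quantile normalization and with recovered read totals 6 were higher and 3 lower, and against genes of the same level 4 and 3. KRT8, a keratin of simple epithelium, went from 417 to 1031 FPKM, with many pseudogenes that can share its reads. CLDN1, a tight junction protein, went from 29.8 to 73.9 FPKM. PKP2, of desmosomes, went from 16.2 to 36.4 FPKM. The lower member was CLDN2, a pore-forming claudin, at 6.90 and 0.897 FPKM. Gastric secretory genes leaned lower. Of 36 measured gastric and intestinal secretory genes, 9 were lower and 1 higher, with a median of -0.32. TFF2, a trefoil peptide of gastric neck cells, went from 13.7 to 2.34 FPKM. MUC1, a membrane mucin, went from 58.9 to 24.3 FPKM. FOXA2, a gut transcription factor, went from 18.4 to 7.09 FPKM. SOX factors went opposite ways. SOX9, of intestinal progenitors, went from 51.05 to 19.8 FPKM. SOX2, of gastric epithelium, went from 2.12 to 9.33 FPKM. LGALS4, a gut galectin, went from 88.1 to 43.5 FPKM. HGC27 measured 5 members of this list. Of 32 glycan and sialylation enzymes, 3 were higher and 4 lower, beside 8.21% and 8.94% over all measured genes. C1GALT1, which makes core 1 of mucin glycans, went from 13.7 to 31.2 FPKM. B4GALT5, of glycolipids, went from 17.3 to 43.3 FPKM. GALNT12, which starts mucin glycans, went from 11.3 to 4.04 FPKM.

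Of 16 measured BCL2 family genes, 1 was higher (BCL2L2) and 3 lower (BMF, BBC3 and BCL2L13). MCL1, which protects from apoptosis, went from 73.9 to 138 FPKM, short of 2-fold. BAX, an effector of apoptosis, stood at 15.4 and 8.17 FPKM. BBC3, a p53-induced killer also called PUMA, had a difference of -1.54. BCL2L11, the killer BIM, went from 7.44 to 15.3 FPKM, short of 2-fold. Killer genes thus lay on both sides of their DMSO levels. Of 28 death receptor and caspase genes, 4 were higher and 1 lower. TNFRSF12A, the TWEAK receptor, went from 12.8 to 60.9 FPKM. TNFRSF10A, a TRAIL receptor, went from 11.2 to 33.5 FPKM. Of 27 p53 targets and regulators, 5 were higher and 2 lower, and 3 and 5 with recovered read totals. PLK2, a kinase of stress, went from 7.70 to 36.6 FPKM. SESN2, a sestrin that ATF4 also induces, went from 22.7 to 9.18 FPKM. MDM2, the main p53 ligase, went from 41.3 to 71.1 FPKM.

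Glucose handling genes were led by a pair of arrestins. TXNIP and ARRDC4 are induced by MondoA when glucose phosphates accumulate. TXNIP went from 32.2 to 169.7 FPKM. ARRDC4 went from 5.47 to 34.7 FPKM. SLC2A1, the glucose importer, went from 19.5 to 48.6 FPKM. Of 38 measured glycolysis and hypoxia genes, 6 were higher and 1 lower, and 3 and 1 against genes of the same level. VEGFA, the angiogenic factor, was the lower one, going from 38.6 to 13.98 FPKM. LDHA, lactate dehydrogenase, went from 84.9 to 166 FPKM, short of 2-fold. In the TCA cycle list, 4 of 28 were lower and 1 higher. OGDH, the oxoglutarate dehydrogenase subunit, went from 27.3 to 10.02 FPKM. DLST, its partner subunit, went from 21.5 to 50.2 FPKM. The 2 subunits of the same complex thus lay on opposite sides. IDH2, the mitochondrial isocitrate dehydrogenase, went from 19.7 to 7.90 FPKM. Of 22 measured ferroptosis and iron handling genes, 3 were higher and 4 lower, beside 8.21% and 8.94% over all measured genes. TFRC, the transferrin receptor, went from 51.3 to 144 FPKM. SLC40A1, the iron exporter ferroportin, went from 46.8 to 17.3 FPKM. ACSL4, which makes oxidizable lipids, went from 22.4 to 8.60 FPKM. Of 36 cholesterol and fatty acid synthesis genes, 1 was higher and 2 lower, beside the same 8.21% and 8.94%. INSIG2, a brake on that pathway, went from 9.74 to 27.9 FPKM.

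Of 13 mitochondrially encoded mRNAs, 4 were lower and 0 higher, with a median of -0.78. Quantile normalization gave 0.05, since it sets the highest ranks of both libraries equal. MT-CO3, of complex IV, went from 20792 to 7729 FPKM. MT-ND3, of complex I, went from 5784 to 1922 FPKM. MT-CYB, of complex III, went from 3395 to 1478 FPKM. The 12 genes of the heavy strand were all below their DMSO level with the deposited scaling. MT-ND6, the sole mRNA of the light strand, went from 225 to 398 FPKM, and strand use in counting is not given, so reads of the opposite strand cannot be told apart from it. In HGC27, MT-CO3 went from 8342 to 2704 FPKM and MT-ND6 from 151 to 227 FPKM. Nuclear subunits of oxidative phosphorylation had 0 higher and 2 lower of 75, with a median of -0.03.

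Proteasome and HLA genes had few calls. Of 46 proteasome genes 1 was higher and 0 lower, with a median of 0.41. That median was 0.07 against genes of the same level. HLA class I presentation genes had 0 and 0 of 12. Of 45 lysosomal genes 5 were higher and 2 lower, beside 8.21% and 8.94% over all measured genes. With quantile normalization, against genes of the same level and with recovered read totals, 1 was higher and 3 lower. With the deposited scaling 4 of the 5 encode subunits of the proton pump. ATP6V1A, its catalytic subunit, went from 15.1 to 31.6 FPKM. ATP6V1D, of the central stalk, went from 9.45 to 20.9 FPKM. In HGC27 18 of 43 lysosomal genes were higher, against 9.72% of all genes measured there. Of 32 autophagy genes 3 were higher and 0 lower, beside 8.21% and 8.94% over all measured genes. ATG12, a ubiquitin-like conjugate, went from 7.13 to 22.4 FPKM. Interferon-stimulated genes had 0 higher and 4 lower of 15, with UBE2L6, the ISG15-conjugating enzyme, going from 10.7 to 2.28 FPKM. ID2, an inhibitor of differentiation factors that BMP induces, went from 69.9 to 14.3 FPKM. ID1, its relative, went from 36.6 to 8.88 FPKM. BMP4, a ligand of that pathway, went from 17.4 to 38.3 FPKM. The 2 ID genes and BMP4 therefore lay on opposite sides. Of 21 measured HOX genes 2 were lower and 0 higher. Mitochondrial carriers of the SLC25 family had 2 higher and 1 lower of 36. SLC25A25, a calcium-regulated carrier of ATP, went from 3.77 to 11.3 FPKM. The GADD45, BTG and TOB list had 1 higher of 9, and ABC transporters 1 higher and 2 lower of 16. The MYC network had 1 lower of 11, and snoRNA host genes 1 higher and 2 lower of 22. The counts of all these lists are to be set beside the 8.21% and 8.94% over all measured genes.

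The medians of 23 of the 57 lists took another sign in at least 1 other scaling, so no direction is read from them. They are the lists of ABC transporters, actin and SRF targets, autophagy, BCL2 family, cholesterol synthesis, EGF receptor family, ERK feedback, endoplasmic reticulum chaperones, ferroptosis and iron, HLA class I, HOX, ID and BMP, stress response core, lysosome, MYC network, mitochondrial ribosomal proteins, mitochondrially encoded mRNAs, mucin-type glycans, Na,K-ATPase, nuclear oxidative phosphorylation, SLC25 carriers, ion transporters and the TCA cycle. The 24 lists above 0 in all of them included ribosome biogenesis, the mitotic lists, replication, YAP targets, NF-kB targets and epithelial junctions. The 10 below 0 in all of them included ATF4 targets, amino acid transporters, synthetases, NRF2 targets, gastric secretory genes, interferon-stimulated genes and ribosomal proteins.

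**Figure D4:**
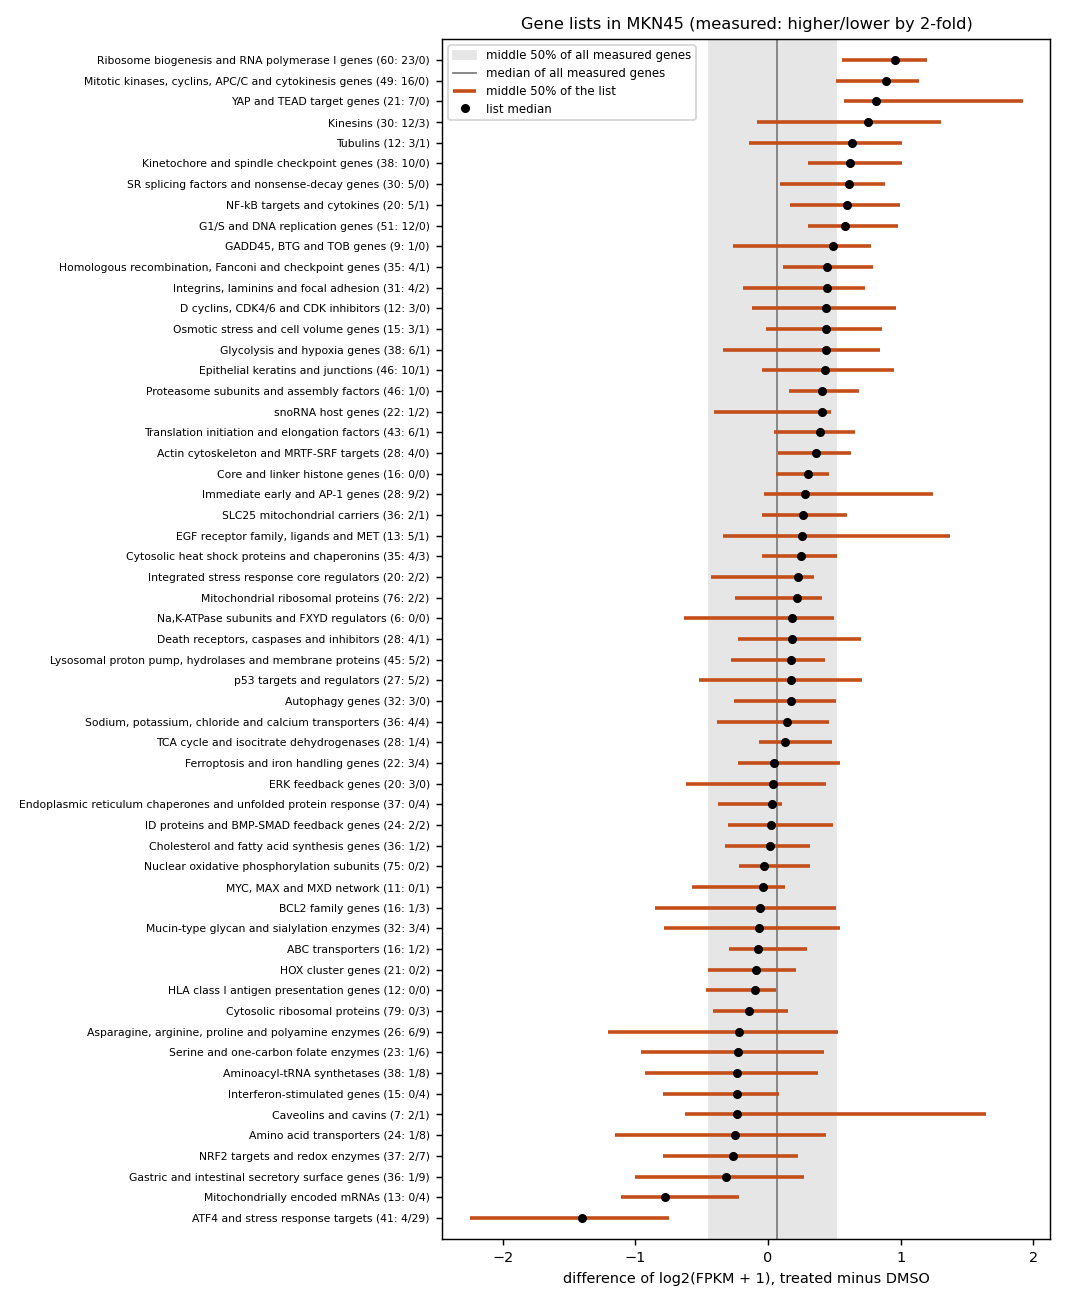
Medians (points) and middle 50% (bars) of the difference of log2(FPKM + 1), treated minus DMSO, for 57 gene lists in MKN45, with measured, higher and lower counts in each label; the grey band and line give the middle 50% and median of all 11895 measured genes. ATF4 targets sit lowest, at -1.40, and ribosome biogenesis highest, at 0.96.

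The differences varied with the level of a gene. Of 3173 genes at 1 to 3 FPKM, 3.06% were higher and 14.1% lower, with a median of -0.29. Of 1173 genes at 30 to 100 FPKM, 16.2% were higher and 5.12% lower, with a median of 0.44. Genes at 300 FPKM or more had a median of -0.07. Lower calls thus outnumbered higher ones at 1 to 3 FPKM and, by 7 to 4 of 81 genes, at 300 FPKM or more, and higher calls outnumbered lower ones at 30 to 100 FPKM. Among 10299 protein-coding genes with a 3′ UTR, the share of higher genes went with the number of AU-rich pentamers (ATTTA), a component of elements that destabilize mRNA. With no pentamer 4.75% were higher and 10.7% lower, and with at least 10 pentamers 12.7% were higher and 3.79% lower. Within 10 to 30 FPKM, 6.92% of genes with no pentamer and 19.7% of genes with at least 6 were higher. Longer 3′ UTRs hold more pentamers by length alone, and their length was not separated from the pentamers.

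Noncoding classes differed from coding genes in their counts. Of 174 antisense models, 5 were higher and 56 lower (32.2%), with a median of -0.65, and of 10328 protein-coding genes 8.21% were higher and 7.82% lower. At 1 to 3 FPKM, 32.5% of 123 antisense models were lower against 13.2% of 2263 protein-coding genes. Of 184 lincRNAs 44 were lower and 8 higher. The antisense model ENSG00000265401, which overlaps UBB, went from 46.7 to 2.18 FPKM. ENSG00000269968, which overlaps GAPDH, went from 13.5 to 0.894 FPKM. Strand use in the counting is not given, so reads of an antisense model and of its partner cannot be told apart, and GAPDH itself stood at 1263 and 1154 FPKM. DLGAP1-AS2 went from 19.5 to 2.36 FPKM and LHFPL3-AS2 from 38.3 to 3.02 FPKM. Models inside introns leaned upward. Of 55 snoRNAs, most of which lie in introns of host genes, 14 were higher and 1 lower. Of 66 sense intronic models, 14 were higher and 1 lower. The libraries were made by mRNA capture, and reads of such models and of their host transcripts cannot be told apart. No change in the level of snoRNAs themselves is read from these counts. Among noncoding genes whose mean was 3 FPKM or more the highest was ENSG00000276850, a lincRNA that went from 2.88 to 23.02 FPKM.

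**Figure D5:**
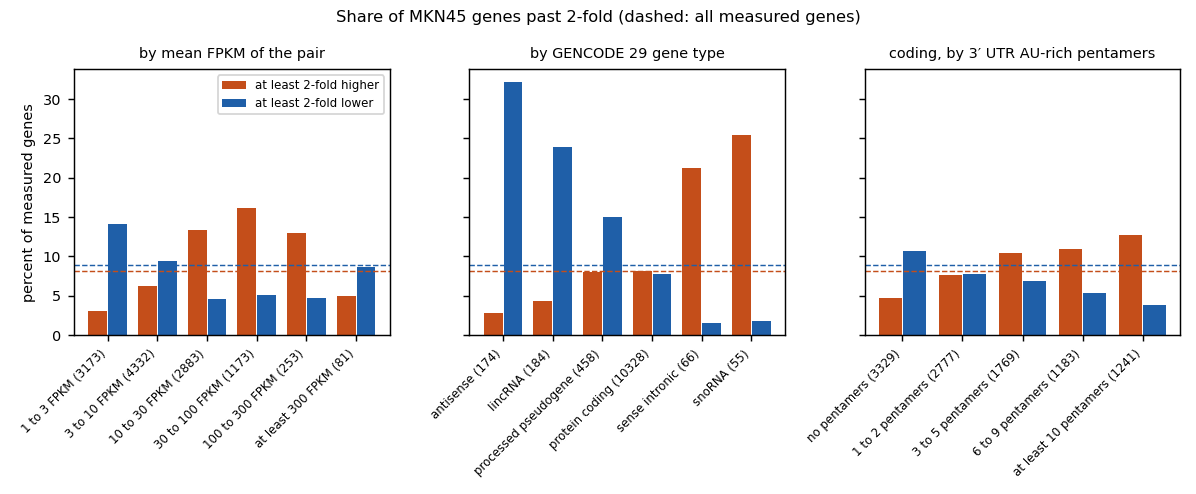
Percent of measured MKN45 genes at least 2-fold higher (orange) or lower (blue) after periplocymarin, by mean level, by GENCODE 29 gene type and by number of AU-rich pentamers in the 3′ UTR, with the number of genes in each class; dashed lines give 8.21% and 8.94% over all measured genes. Of the 6 types drawn, lower calls are most frequent among antisense models, at 32.2%, and higher calls among snoRNAs, at 25.5%. Reads of snoRNAs and of their host transcripts cannot be told apart.

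Some genes were under 1 FPKM in 1 library and at 5 FPKM or more in the other. Of 10328 measured protein-coding genes, 8 were under 1 FPKM in DMSO and at 5 FPKM or more after treatment, and 36 went the other way. The treated library had fewer reads (27545073 against 36321070) and fewer genes at 1 FPKM or more (11148 against 12321). No count in another scaling is given. Under 1 FPKM is not silence, as BIRC3 had 200 reads in DMSO and CBX5 307 treated. Over all measured genes of any type at a mean of 3 to 10 FPKM, 6.21% were called higher and 9.40% lower. Those calls need 2-fold only, a looser threshold, and some of the 36, such as ST6GAL1, had a higher mean. Among the 8, BIRC3 and CXCL8 were described above and C3orf52 went from 0.721 to 5.19 FPKM. Among the 36 were ST6GAL1 and CHAC1, and other genes that stress is known to induce. ADM2, a secreted peptide, went from 8.48 to 0.205 FPKM. JDP2, a repressor of AP-1, went from 7.66 to 0.590 FPKM. CLGN, a chaperone of the endoplasmic reticulum, went from 9.37 to 0.490 FPKM. Signalling and transport genes were in the same group. LCK, a Src family kinase, went from 6.42 to 0.881 FPKM. TSC22D3, a glucocorticoid-induced leucine zipper, went from 5.53 to 0.981 FPKM. ADH1C, an alcohol dehydrogenase, went from 9.03 to 0.453 FPKM.

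The rule that called these genes did not use the HGC27 pair. Of the 977 genes higher in MKN45, 851 were measured in HGC27, of which 340 were higher there (39.95%) and 11 lower (1.29%), against 9.72% and 10.4% of all 11821 genes measured in HGC27. Of the 1064 lower in MKN45, 709 were measured, of which 337 were lower (47.5%) and 10 higher (1.41%). The 340 shared higher genes are 34.8% of the MKN45 calls and 29.6% of the 1149 HGC27 calls. Of 16 mitotic genes higher in MKN45, 14 were higher in HGC27, and of 23 ribosome biogenesis genes higher in MKN45, 3 were. No test between the lines was made, since each has 1 library a side. Of the 29 ATF4 list members lower in MKN45, 28 were measured in HGC27 and 9 were lower there, with a median of -0.73.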

How the data were processed

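Libraries were prepared from total RNA with mRNA capture beads, per the labels' protocols. The deposited table gives FPKM per Ensembl gene for the 4 libraries, the unit being read from the values, since 1 read was worth a fixed amount divided by gene length. Per the submitters' processing notes, the tools were HISAT2 2.1.0 and fastp 2.0 and the build hg38, with no role or order stated. Which counter and annotation were used, and whether strand was read, is not given in the sources used here.

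Differences were taken on the log2(FPKM + 1) scale (pseudocount 1) from the deposited values, which understates changes of low genes. Genes under a mean of 1 FPKM in the pair were left out. Whole reads were recovered as FPKM times a gene length for 20299 of 20299 genes above 0 in at least 3 libraries (tolerance 0.0001 reads). They were whole at the GENCODE 29 length for 15204 genes. For other genes a length that gave whole reads was searched for, so their recovery is no check on that length. Recovered reads covered 11638 of the 11895 measured genes. Intervals of a ratio (95%, exact Clopper-Pearson) came from the share of a gene's reads that lay in the treated library. For named genes their median half-width on the log2 scale was 0.08. No count test was run, since each side has 1 library. Gene types and coordinates are from GENCODE 29 (GRCh38), and promoters from RefSeq (GRCh38.p14).

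The genes named were the 15 highest and 15 lowest protein-coding differences where the mean was 10 FPKM or more, up to 8 members with the largest differences in each list where it was 5 FPKM or more, the Na,K-ATPase genes, the 10 highest levels, and the 5 highest and 5 lowest noncoding genes where it was 3 FPKM or more. Other genes, among them the 7q31 neighbours, members short of 2-fold and genes that crossed 1 FPKM, were chosen after their values were seen. Some members of the lists are not reported here by name. The members and lists were chosen with earlier results of these data known. The alternatives were a pseudocount of 0.1, no filter, a floor of 10 FPKM, library totals, quantile normalization, and centring on genes of the same level in 20 bins. Scaling by recovered read totals was added after seeing the data. The calling was tried on simulated data for the MKN45 pair (3000 genes). Where the mean was 10 FPKM or more, 40 of 40 genes changed 4-fold were called in the true direction. Of 1469 unchanged genes whose mean reached 1 FPKM, 3 were called. Variation between cultures cannot be estimated from 1 library a side, so these counts give no error rate for the real pair. Python 3.11.15, numpy 2.4.6, pandas 2.3.3, scipy 1.17.1 and matplotlib 3.10.9 were used.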

Additional observations from a re-analysis of the deposited data

Results flagged for a closer look

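Among the named genes, 3 were past 2-fold in MKN45 and past 2-fold in the opposite direction in HGC27. The difference between the lines was not tested, since each has 1 library a side. GDF15, a secreted stress factor, had a difference of 1.39 in MKN45 (66.8 to 177 FPKM) and went from 32.1 to 0.366 FPKM in HGC27. SAT1, which breaks down polyamines, had a difference of -1.44 in MKN45 (190.5 to 69.5 FPKM) and went from 4.52 to 13.6 FPKM in HGC27. RPL7A, a ribosomal protein gene whose 37 named pseudogenes and intronic snoRNAs make its value uncertain, had a difference of -1.57 in MKN45 (207 to 69.3 FPKM) and went from 77.5 to 297 FPKM in HGC27.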

How the results depend on the processing

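With 1 library a side, no replicate could be left out, and a difference between these 2 libraries cannot be told apart from one between 2 cultures. No paired analysis was possible because each line and treatment has 1 library. Higher calls numbered 977 as reported, 611 with a floor of 10 FPKM on the mean and 557 with recovered read totals. Lower calls numbered 1064 as reported, 1726 with a pseudocount of 0.1 and 210 with that floor. Of the 977 higher genes, 630 remained called with quantile normalization and 545 when centred on genes of the same level, and of the 1064 lower genes 816 and 808. The median of the EGF receptor list turned to -0.0412 with quantile normalization and -0.0395 when centred by level, where the actin list turned to -0.0210 and the SLC25 list to -0.0139. Quantile normalization turned the mitochondrially encoded mRNAs to 0.0514 and MT-CO2 to 0.18. It equalizes the highest ranks of the libraries by construction, and the cause of the other turns was not tested. Counting error weighs most on genes with few reads. Near 1 FPKM in the treated library, reads numbered 27 for JOSD2 (0.820 FPKM) and 307 for CBX5 (0.856 FPKM).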
